A study of Sus scrofa with 6 samples.

Results

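The family described here is the set of microRNAs (miRNAs) miR-25, miR-32, miR-92a, miR-92b and miR-363, which share a seed, the run of bases near the start of a miRNA that pairs with its target transcripts. Its entries were chosen by name, as every entry of the deposited table called miR-25, miR-32, miR-92a, miR-92b or miR-363, with or without an arm. That gave 5 of 1645 entries: miR-92a, miR-92b-3p, miR-92b-5p, miR-32 and miR-363. miR-25 and its cluster partners miR-93 and miR-106b were not analysed here. The family was proposed with the differences of miR-92b, miR-32 and miR-92a between these same libraries known, so those differences are given as descriptions, without a p-value, and support nothing further.

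The libraries hold small RNA of cultured immature Sertoli cells, the somatic nurse cells of the seminiferous tubule, taken from the testes of pig fetuses of 80 to 90 days. The AA2P group (3 libraries) received 250 µM L-ascorbic acid 2-phosphate, a stable form of vitamin C, as its sesquimagnesium salt hydrate, and the control group (3 libraries) received none. All cells grew in medium with 10% fetal bovine serum and were seeded 6 h before treatment began. The sources used here do not give the duration of treatment, the strain or any pooling of animals, nor whether libraries came from separate cultures, so the spread between libraries may be technical.

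miRNAs guide Argonaute proteins to partly complementary sites in transcripts, which lowers translation and stability, and miRNAs that share a seed can bind many of the same sites. Members of the family are known in human and mouse cells for repressing the pro-apoptotic gene BCL2L11, and the miR-17-92 cluster that yields miR-92a is a target of MYC and supports proliferation. In these hairpins the seed shared by the family lies on the 3p arm of miR-92a, miR-92b and miR-363 and, in human, on the 5p arm of miR-32. miR-92b-5p comes from the opposite arm of its hairpin and does not carry the family seed. The table names no arm for miR-92a, miR-32 and miR-363, and these were taken as the main arm. Sequences were not used here.

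RefSeq's pig gene table (assembly Sscrofa11.1) matched 5 of the 6 hairpin genes looked up, and these lie in 4 separate places. MIR92A-1 ends a run of 6 miRNA genes, after MIR17, MIR18A, MIR19A, MIR20A and MIR19B-1. MIR92A-2 and MIR363-1 stand side by side in another run of 6, with MIR19B-2, MIR20B-1, MIR18B and MIR106A. MIR32 lies within the span of TMEM245, which encodes a transmembrane protein, and MIR92B lies between THBS3 and MUC1 in gene order, with an uncharacterised locus beside THBS3. The entry miR-92a stands for the product of both MIR92A-1 and MIR92A-2, which the table does not separate. The genome build of the deposited table is not given, so no coordinates are printed.

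Values are TPM, here the reads of an entry scaled to a common library total, and low values rise in 1 step per library that all entries have in common, so no length term was seen. That step put the depth at 25.8 to 36.0 Mreads (counted reads, with M for mega) per library. A value resting on 3 reads or fewer was treated as at the floor, which lay at 0.0834 to 0.116 TPM, and both figures cover counting error only. Libraries of 1 group correlated over the tested entries with a Pearson's r of 0.962 to 0.985 in log2(TPM + 1), and libraries of different groups with 0.958 to 0.978, a description across miRNAs, which are not independent replicates. miR-21-5p, the most abundant entry, took 410890 ± 36994 TPM with AA2P and 520562 ± 8757 TPM in controls (SD, n = 3 each), which moves the TPM of all other entries. The list of blood cell miRNAs (6 of 6 listed) summed to 4.48 to 14.1 TPM with AA2P and 4.81 to 5.87 TPM in controls. The muscle and myoid list (6 of 6 listed) summed to 219 to 307 TPM with AA2P and 168 to 227 TPM in controls. The endothelial list (2 of 2 listed) summed to 86.8 to 111 TPM with AA2P and 98.4 to 112 TPM in controls. The germ cell list (2 of 12 listed) summed to 213 to 283 TPM with AA2P and 169 to 183 TPM in controls, without overlap. No miRNA was taken as defining for Sertoli cells, and in such bulk samples fewer cells of a type and less RNA per cell cannot be told apart.

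miR-92a made up most of the family in every library, and the order of the members was the same in all 6. miR-92a, the mature product of the MIR92A-1 and MIR92A-2 genes, ranked 10th of 358 known pig entries by mean level. It stood at 11202, 12195 and 11754 TPM in the AA2P libraries and at 15181, 13754 and 12932 TPM in the control libraries. Every AA2P library lay below every control library, with a gap of less than the spread among the controls. miR-92b-3p ranked 72nd, miR-32 95th, miR-92b-5p 182nd and miR-363 293rd. Within each group neighbours in this order did not overlap in TPM, so the order did not rest on a single library. Across groups, miR-32 with AA2P (369.9 to 488 TPM) overlapped miR-92b-3p in controls (355 to 437 TPM).

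**Figure D1:**
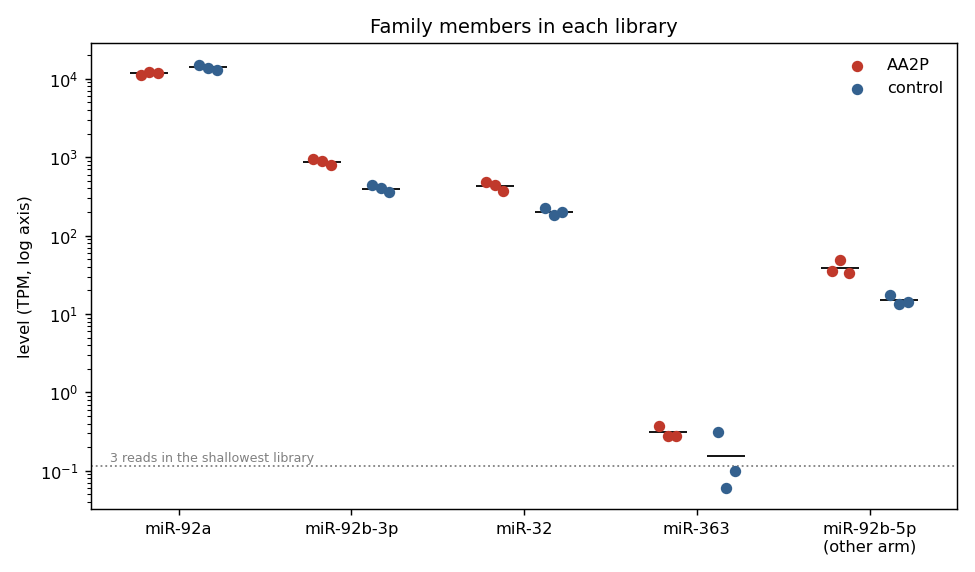
Level of each family entry in TPM (log axis) in the 3 AA2P (red) and 3 control (blue) libraries, with bars at group means and a dotted line at 3 reads in the shallowest library. miR-92b-3p, miR-32 and miR-92b-5p stand higher in all AA2P libraries, miR-92a stands lower in all of them, and miR-363 lies near the floor.

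miR-92b-3p and miR-32 were each a little over 2-fold higher with AA2P. miR-92b-3p, the main product of the hairpin between THBS3 and MUC1, was listed at 942, 885 and 790.4 TPM in the AA2P libraries, against 437, 401 and 355 TPM in the control libraries. The lowest AA2P library was well above the highest control library. Mean levels were 872 ± 76.6 TPM with AA2P and 398 ± 41.2 TPM in controls (SD, n = 3 each), a ratio of 2.19 and a log2 difference of 1.13 (SE 0.109).

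miR-32, from the hairpin within TMEM245, was listed at 488, 444 and 369.9 TPM in the AA2P libraries, against 222, 184 and 199 TPM in the control libraries. Again the groups did not overlap. Mean levels were 434 ± 59.7 TPM with AA2P and 201 ± 19.2 TPM in controls (SD, n = 3 each), a ratio of 2.16 and a log2 difference of 1.10 (SE 0.129). Both miRNAs were highest in AA2P replicate 1 and lowest in AA2P replicate 3 among the treated libraries. In the same libraries miR-92a was lowest in AA2P replicate 1.

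miR-92b-5p, the opposite arm of the miR-92b hairpin, was listed at 35.3, 48.2 and 32.9 TPM in the AA2P libraries, against 17.6, 13.6 and 14.1 TPM in the control libraries. These values rest on 949, 1732 and 1068 reads with AA2P and on 454, 438 and 427 reads in controls. The groups did not overlap, the ratio of means was 2.57 and the log2 difference was 1.30 (SE 0.179). Its coefficient of variation, 21.2% with AA2P and 14.5% in controls, was above that of miR-92b-3p, at 8.78% with AA2P and 10.4% in controls.

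miR-92a averaged 11717 ± 498 TPM with AA2P and 13956 ± 1138 TPM in controls, a ratio of 0.84 and a log2 difference of -0.25 (SE 0.0804). miR-363, which shares a cluster with MIR92A-2, was listed at 0.37, 0.28 and 0.28 TPM with AA2P and at 0.31, 0.06 and 0.1 TPM in controls. These correspond to 10, 10 and 9 reads with AA2P and to 8, 2 and 3 reads in controls, so that a pair of control libraries lay at or under the floor. The groups overlapped, no fold is given, and miR-363 did not pass the filter on low values, which asked for at least 1 TPM in at least 3 libraries.

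The differences were set among those of all 433 entries that passed this filter, in a limma fit on log2(TPM + 1) in which an entry is called at an adjusted p under 0.05 (Benjamini-Hochberg over all 433). Of the 4 family entries tested, 3 were called higher (miR-92b-3p, miR-92b-5p and miR-32), where 19.9% of all tested entries were called higher. None was called lower, where 4.85% of all were, and miR-92a was not called. Every AA2P library was above every control library for the same 3 entries, as for 40.4% of all entries, and below for miR-92a, as for 9.24%. These shares are the background of the same libraries, and nothing is read from the members' counts beside them because the family was proposed with this comparison known. By size of rise, miR-92b-5p was 16th, miR-92b-3p 26th and miR-32 31st of 433, while miR-92a had the 75th lowest difference. The median log2 difference was 1.12 for the 4 family entries and 0.25 for all 433. Those 4 include both arms of the miR-92b hairpin, so this locus enters the count and the median more than once. Without control replicate 3 the calls over all entries numbered 62 in place of 107, and the 3 family entries were still called.

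**Figure D2:**
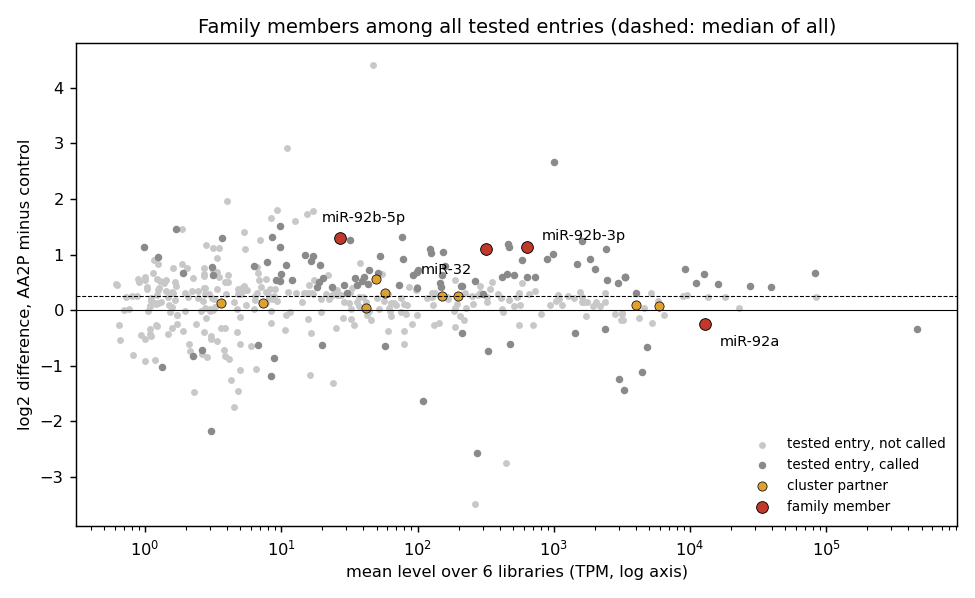
Log2 difference between AA2P and control against mean TPM (log axis) for 433 tested entries, with called entries in dark grey, 9 cluster partners in yellow and 4 family entries in red. miR-92b-5p, miR-92b-3p and miR-32 lie together near 1.10 to 1.30, above the dashed median of 0.25, and miR-92a lies at -0.25.

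TPM are shares of a library, so the direction of a small difference depends on what the other entries do. With median-of-ratios scaling the median log2 difference of all tested entries shifted by -0.24. The log2 differences were then 0.86 (SE 0.0820) for miR-92b-3p, 0.83 (SE 0.0889) for miR-32, 1.04 (SE 0.155) for miR-92b-5p and -0.52 (SE 0.0791) for miR-92a. All 4 tested members were called under this scaling, 3 of them higher, where 11.1% of all entries were called higher, and miR-92a lower, where 11.5% were called lower. Over all entries the calls were 86 higher and 21 lower as deposited, and 48 higher and 50 lower under this scaling. miR-92a was called lower under each of the 4 other scalings run and under none of the other 12 settings.

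**Figure D3:**
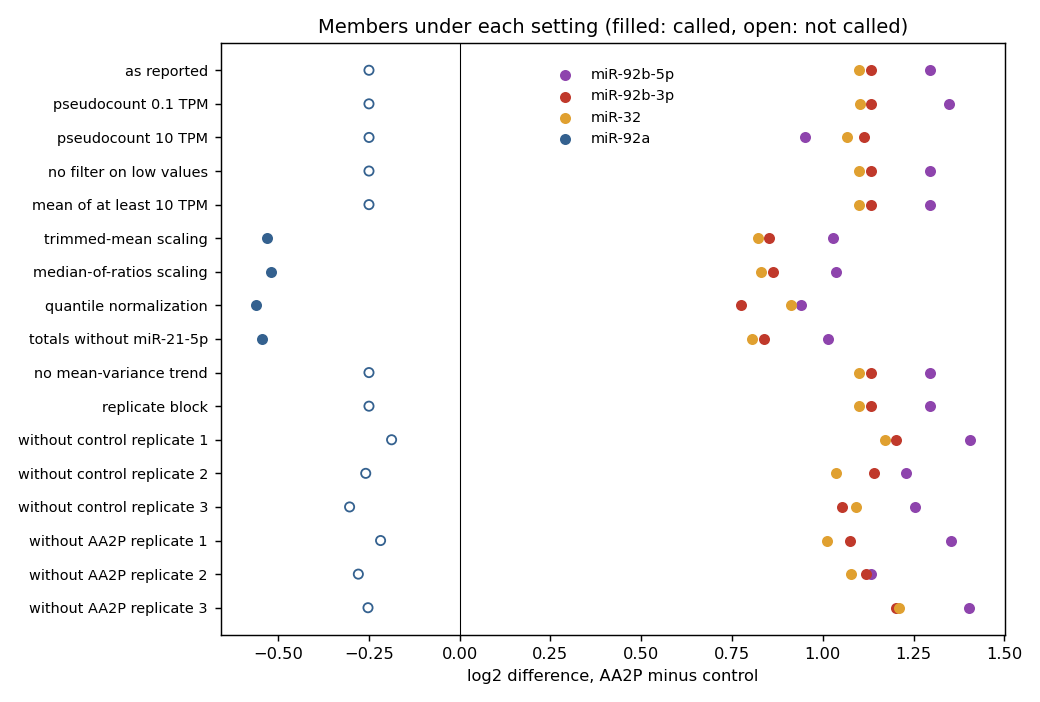
Log2 difference between AA2P and control of the 4 tested family entries, as reported and under 16 other settings, with filled points where the entry was called and open points where it was not. miR-92b-5p, miR-92b-3p and miR-32 stay between 0.77 and 1.40 and are called in all, while miR-92a stays below 0 and is called under the 4 other scalings alone.

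Ratios within a library are free of its scaling, and they set the members against miR-92a directly. miR-92a outnumbered miR-92b-3p 11.9, 13.8 and 14.9 times in the AA2P libraries, against 34.7, 34.3 and 36.4 times in the control libraries. It outnumbered miR-32 23.0, 27.5 and 31.8 times in the AA2P libraries, against 68.5, 74.9 and 65.1 times in the control libraries. Neither pair of groups overlapped, and in both the ratios of all treated libraries were well under those of all controls. Over the 432 other tested entries set against miR-92a in this way, every AA2P library was above every control library for 60.4%. The log2 ratio of miR-92b-3p to miR-92a was -3.75 ± 0.164 with AA2P and -5.13 ± 0.0457 in controls, a difference of 1.38. That of miR-32 to miR-92a was -4.76 ± 0.234 with AA2P and -6.11 ± 0.102 in controls, a difference of 1.35.

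miR-32 and miR-92b-3p come from separate loci, and their proportion to each other differed between the groups by less than the spread of the libraries. The ratio of miR-32 to miR-92b-3p was 0.518, 0.502 and 0.468 in the AA2P libraries and 0.507, 0.458 and 0.559 in the control libraries. The AA2P values lay within the range of the controls. On the log2 scale it was -1.01 ± 0.0748 with AA2P and -0.98 ± 0.144 in controls, and the difference of -0.03 was smaller than either SD.

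The proportion of the arms of miR-92b overlapped between the groups. miR-92b-3p outnumbered miR-92b-5p 26.7, 18.4 and 24.0 times in the AA2P libraries and 24.9, 29.5 and 25.2 times in the control libraries, with overlap. The log2 ratio of miR-92b-5p to miR-92b-3p was -4.47 ± 0.271 with AA2P and -4.64 ± 0.130 in controls. AA2P replicate 2 held the highest level of miR-92b-5p and stood apart from the other AA2P libraries in this ratio. The difference between the groups was 0.16, more than the SD of the controls and less than that of the AA2P libraries. It was 0.01 without AA2P replicate 2, 0.28 without AA2P replicate 1 and 0.09 without control replicate 2. With a pseudocount of 10 TPM in place of 1 it was -0.16.

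As deposited, the total of the shared seed overlapped between the groups. Summed over miR-92a, miR-92b-3p, miR-32 and miR-363, the level was 12633, 13524 and 12914 TPM in the AA2P libraries, against 15840.4, 14339 and 13486 TPM in the control libraries. AA2P replicate 2 was above control replicate 3, so the groups overlapped. The means were 13024 ± 456 TPM with AA2P and 14555 ± 1192 TPM in controls, or 1.30% ± 0.0456 of a library with AA2P and 1.46% ± 0.119 in controls. The log2 ratio of these means was -0.16, and -0.10 without control replicate 1. The overlap was lost under each of the 4 other scalings, with every AA2P library below every control library. With median-of-ratios scaling the sums were 11082, 12092 and 12422 in the AA2P libraries, against 16687, 16308 and 14918 in the control libraries, a log2 ratio of -0.43.

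Within that sum, miR-92a took 88.7, 90.2 and 91.0% in the AA2P libraries, against 95.8, 95.9 and 95.9% in the control libraries. miR-92b-3p took 6.71% ± 0.684 with AA2P and 2.73% ± 0.0865 in controls, and miR-32 took 3.34% ± 0.502 with AA2P and 1.38% ± 0.0970 in controls. None of these 3 shares overlapped between the groups, and the control libraries lay closer together than the AA2P libraries in each. The 3 shares add up to nearly the whole sum, so they are not separate results. As miR-92a is most of the sum, the shares of miR-92b-3p and miR-32 largely restate their ratios to miR-92a. Such ratios were higher in every AA2P library than in every control library for 60.4% of the 432 other tested entries. Without miR-92a the other shared-seed members summed to 1307 ± 136 TPM with AA2P and 599 ± 54.3 TPM in controls.

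**Figure D4:**
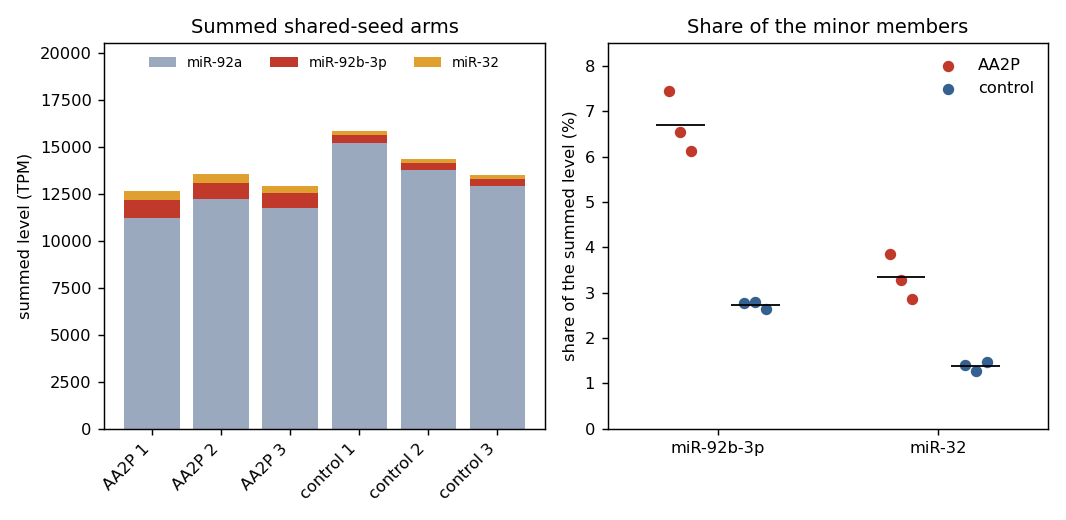
Left, summed TPM of the shared-seed arms in each library, stacked by miR-92a, miR-92b-3p and miR-32 (miR-363 is too low to be seen). Right, the share of that sum taken by miR-92b-3p and miR-32 in percent, with bars at group means: both shares are higher in all AA2P libraries, at 6.71% and 3.34% on average, than in controls, at 2.73% and 1.38%.

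The cluster partners of miR-92a were read from the same fit. Of 10 partner entries in the table, 9 passed the filter on low values, and miR-18b, at 0.53 to 1.05 TPM, did not. None of the 9 was called, by limma, in either direction (smallest adjusted p = 0.0746, for miR-19a), where 19.9% of all tested entries were called higher and 4.85% lower. Of the 9, 1 had an unadjusted p under 0.05. The share of all tested entries under that unadjusted threshold is not given here, so nothing is read from this count. Their log2 differences ran from 0.04 to 0.56 with a median of 0.14, beside 0.25 for all entries. With median-of-ratios scaling 2 of the 9 were above 0 and 7 below, so the direction of most partners depends on the scaling. Groups were apart, with AA2P above, for 2 of the 9 (miR-18a and miR-19a), beside 40.4% of all entries.

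The most abundant partners, miR-20a-5p and miR-17-5p, which share a seed of their own and repress cell cycle inhibitors such as CDKN1A, overlapped between the groups. miR-20a-5p stood at 6372, 5899 and 5778 TPM with AA2P and at 5658, 4707 and 6945 TPM in controls. miR-17-5p stood at 4349, 4161 and 3957 TPM with AA2P and at 3847, 3405 and 4465 TPM in controls. In both, control replicate 3 was the highest library of all and control replicate 2 the lowest. miR-19a stood at 55.9, 66.8 and 54.4 TPM with AA2P and at 32.1, 38.1 and 50.6 TPM in controls (log2 difference 0.56, SE 0.183). Without control replicate 3, the control library where miR-19a was highest, it was called higher by limma (log2 difference 0.73, adjusted p = 0.0347). In that setting 54 of 433 tested entries were called higher. Among entries with a mean of at least 10 TPM, limma also called miR-19a higher (adjusted p = 0.0420), as it did 78 of 255 entries.

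Set against its partners within each library, miR-92a was lower with AA2P on average for all 9, by -0.29 to -0.81 on the log2 scale, and the groups of the ratio did not overlap for 4 of them, where they were apart in this direction for 60.4% of all other tested entries. Those 4 were miR-17-3p, miR-18a, miR-19a and miR-20b. miR-92a outnumbered miR-18a 57.9, 80.6 and 79.0 times in the AA2P libraries, against 116, 102 and 90.4 times in the control libraries. It outnumbered miR-17-5p 2.58, 2.93 and 2.97 times in the AA2P libraries, against 3.95, 4.04 and 2.90 times in the control libraries. For miR-17-5p control replicate 3 lay inside the AA2P range.

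The clusters that hold the MIR92A genes differed widely in the products that only one of them yields. Products of the MIR92A-1 cluster alone (miR-17, miR-18a, miR-19a and miR-20a, 6 entries) summed to 10407 ± 526 TPM with AA2P and 9863 ± 1669 TPM in controls. Products of the MIR92A-2 cluster alone (miR-106a, miR-18b, miR-20b and miR-363, 4 entries) summed to 107 ± 12.9 TPM with AA2P and 93.1 ± 13.7 TPM in controls. The first sum was 84.2 to 111 times the second in the 6 libraries. How much of miR-92a and miR-19b, found in both clusters, came from each was not measured. Reads of near-identical entries such as miR-20a and miR-20b, or miR-106a and miR-17-5p, may be shared, and their assignment is not given in the sources used here. Some entries outside the family and its partners held the same mean level and log2 difference as another, such as miR-129a-5p and miR-129b. The tested entries behind the background shares thus include some repeats.

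**Figure D5:**
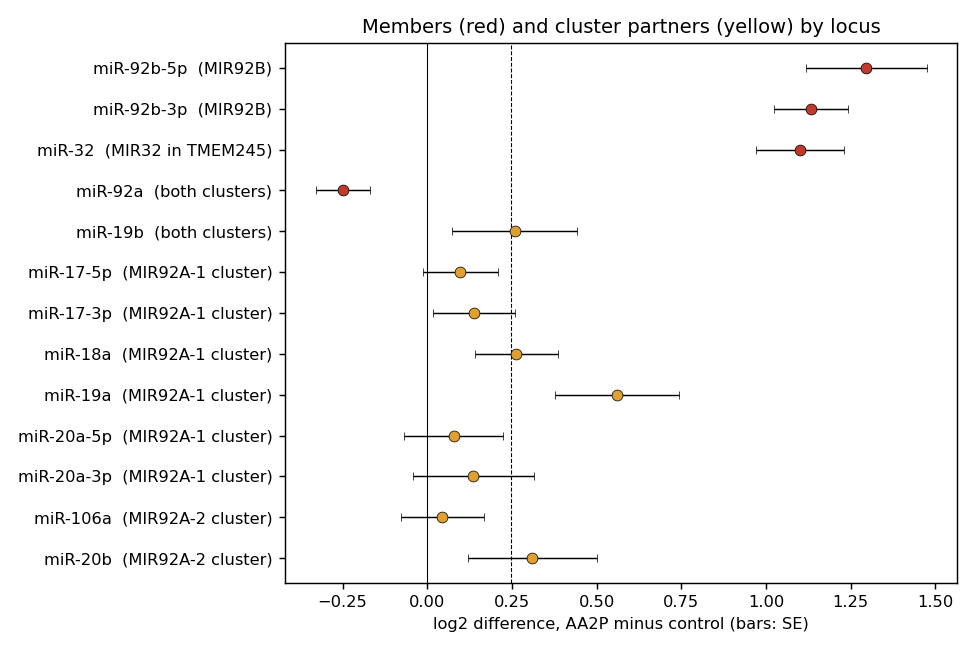
Log2 difference between AA2P and control, with bars for the SE of the limma fit, for 4 family entries (red) and 9 cluster partners (yellow), ordered by locus, with the median of all entries dashed at 0.25. Products of MIR92B and MIR32 lie at 1.10 to 1.30, miR-92a at -0.25 and the partners at 0.04 to 0.56.

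The miRNAs whose profiles over the 6 libraries were most like those of the members were found by the root mean square difference of centred log2(TPM + 1) values, among 260 other known tested miRNAs. Nearest to miR-92b-3p were miR-192 (0.0741), miR-429 (0.0836) and miR-450c-5p (0.0924). Nearest to miR-32 were miR-99a-5p (0.0367), miR-429 (0.0551) and miR-450c-5p (0.0800). miR-92b-3p and miR-32 were 0.0951 apart, so that 3 of the 260 were nearer to miR-92b-3p than miR-32 was, and 3 were nearer to miR-32 than miR-92b-3p was. Nearest to miR-92a were miR-139-3p (0.0269), miR-1343 (0.0840) and miR-345-3p (0.0888), while its distances to miR-92b-3p and miR-32 were 0.70 and 0.69. miR-139-3p, the closest, stood at 118 ± 2.29 TPM with AA2P and 144 ± 12.6 TPM in controls. These distances describe the same 6 libraries and carry the difference between the groups within them.

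Some markers of other cell types moved with the groups, and their part in the differences of the family was not tested. Among white blood cell miRNAs, miR-142-3p stood at 2.68, 1.47 and 1.79 TPM with AA2P and at 0.43, 0.5 and 0.59 TPM in controls. It was called higher (log2 difference 0.96, SE 0.234), a call kept in 6 of the 15 other settings that tested it. It passed the filter on low values through the AA2P libraries alone, which favoured the call, and its controls held 11, 16 and 18 reads. Nothing further is read from that call. miR-142-5p, at 0.72 to 2.08 TPM with AA2P and 0.34 to 0.56 TPM in controls, was also above every control in all 3 AA2P libraries. miR-223 stood at 5.4, 0.06 and 0 TPM with AA2P and at 0.04, 0 and 0 TPM in controls, high in AA2P replicate 1 alone. The red cell miRNAs overlapped between the groups. miR-451 stood at 0.31 to 1.11 TPM with AA2P and 0.31 to 0.81 TPM in controls, and miR-144 at 0 to 0.06 TPM with AA2P and 0 to 0.03 TPM in controls. miR-486 stood at 1.92 to 3.16 TPM with AA2P and 3.13 to 4.09 TPM in controls, and was not called (log2 difference -0.53, SE 0.210). The germ cell list rested on miR-34c, at 283, 213 and 229.7 TPM with AA2P and 183, 169 and 182 TPM in controls, which was called higher (log2 difference 0.43, SE 0.120). That call was kept in 4 of 16 other settings and in none of the 4 other scalings, where the log2 difference was 0.14 to 0.32. The other listed germ cell miRNA, miR-371-5p, was at 0 to 0.11 TPM in all 6 libraries. Of the muscle and myoid list, the log2 difference was 0.55 (SE 0.178) for miR-1 and 0.32 (SE 0.191) for miR-133a-3p. It was 0.32 (SE 0.266) for miR-145-5p and -0.15 (SE 0.272) for miR-143-3p, and none of these was called. miR-133b and miR-206 were under 1 TPM in every library. Without AA2P replicate 1 the log2 differences were 1.07 (SE 0.118) for miR-92b-3p, 1.01 (SE 0.129) for miR-32 and 1.35 (SE 0.210) for miR-92b-5p. All 3 entries were still called, where 67 of 433 tested entries were called higher and 17 lower. For miR-92a the difference was -0.22 (SE 0.0901) without AA2P replicate 1. In the other AA2P libraries miR-142-3p and miR-142-5p stayed above every control. Leaving out AA2P replicate 1 is therefore no test of the part of other cell types.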

How the data were processed

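The 3 AA2P and 3 control small RNA libraries were grouped by their labels. The deposited values are TPM in 1 table, which the authors rounded to 2 decimals and scaled to the same total in each of the 6 libraries. Per the submitters' processing notes, Bowtie was used, with no version or role named. Genome build, miRBase release, mismatches and the handling of shared reads: not given in the sources used here. Depth was computed from the step of low values (tolerance 0.0051 TPM). Entries were tested where 3 or more libraries reached 1 TPM, with limma 3.58.1 in R 4.3.3 on log2(TPM + 1), with a mean-variance trend, two-sided, adjusted by Benjamini-Hochberg over all tested entries. Fold changes on this scale understate those of low entries. No count test was run. Ratios within a library used the same pseudocount of 1 TPM where given as log2, and none where given as plain ratios. Named were all family entries, listed cluster partners, the 3 known tested miRNAs nearest in profile to each tested shared-seed member, and miR-21-5p. The entries of the blood, germ cell and muscle lists were named after their values were seen. Members, lists and tests were chosen with earlier results of these data known. Alternatives were 2 pseudocounts, 2 filters, 4 scalings, no trend, a block and leaving out each library.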

Additional observations from a re-analysis of the deposited data

How the results depend on the processing

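The calls of miR-92b-3p, miR-92b-5p and miR-32 held under all 16 alternatives, with log2 differences of 0.77 to 1.20, 0.94 to 1.40 and 0.81 to 1.21. miR-92a stayed below 0 in all 16 and passed as lower with trimmed-mean scaling (-0.53), median-of-ratios scaling (-0.52), quantile normalization (-0.56) and totals without miR-21-5p (-0.55). The median of all entries lay between -0.01 and 0.02 under these scalings, in place of 0.25. For the summed level of the shared-seed arms, the log2 ratio of -0.16 moved to -0.44, -0.43, -0.47 and -0.46 under the same 4 scalings in that order, and ran from -0.21 to -0.10 with 1 library left out. The arm ratio of miR-92b ran from 0.01 to 0.28 with 1 library left out. Calls over all entries numbered 57 with no filter on low values and 62 to 98 with 1 library left out, in place of 107. Of the cluster partners, 1 was called with a mean of at least 10 TPM, where 96 of all 255 entries were called. With 1 library left out, 0 to 1 partners were called, beside the 62 to 98 calls among all 433 entries. With a pseudocount of 10 TPM the difference of the log2 ratio of miR-92b-5p to miR-92a was 1.20 in place of 1.55, and that of the arm ratio of miR-92b was -0.16 in place of 0.16, since the pseudocount is large beside miR-92b-5p.

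With the replicate block (library number as a covariate) there were 63 calls over all entries, the 3 family calls held, and miR-142-3p and miR-34c were no longer called. Deviations from the group means correlated with 0.29, 0.06 and 0.18 between libraries of the same number, not all over 0.1, and 5 of 6 libraries correlated best with their own number. Deviations within a group are tied to each other by their mean, so these 6 are not separate observations, and no level by chance was computed. This is at most a weak hint from the data, not the design. Depth limits miR-363, which rests on 2 to 10 reads per library, and for it no difference was detectable.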
